A study of Homo sapiens with 15 samples.

Results

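HIF2α was knocked out in addition to HIF1α in hypoxic U87-MG cells, and the effect on miRNA levels was measured as the difference between HIF1α/HIF2α-KO and HIF1α-KO libraries. These groups held 6 of the 15 miRNA-Seq libraries of the study, 3 of each, and were chosen by the genotype and oxygen condition in the sample labels. U87-MG is an established human glioblastoma cell line. The study asked which miRNAs are tied to HIF1α and HIF2α under hypoxia. HIF1α-KO cells (CRISPR/Cas9 knockout of HIF1A), HIF1α/HIF2α-KO cells (knockout of HIF1A and EPAS1, the gene of HIF2α), HIF2α-KO cells (knockout of EPAS1) and wild-type control cells were kept at 1% O2 for 24 h, and further wild-type control cells at 21% O2 for 24 h, with 3 libraries in each of the 5 groups. Loss of HIF1α is therefore shared by both groups compared. Knockout used a single guide RNA per gene, and whether each line was 1 clone is not stated. Nothing states that replicates came from separate cultures, so p-values measure the spread between these libraries, which may be technical.

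HIF1α and HIF2α are the oxygen-regulated subunits of the hypoxia-inducible factors. In low oxygen they escape degradation, pair with the same partner subunit and bind the same short DNA element, and they share some target genes while others respond mainly to one of them. A miRNA is cut from a hairpin precursor, whose 5p or 3p arm becomes the mature strand, and it represses mRNAs that pair with its seed, bases 2 to 8. miR-210 is the miRNA most widely known as a HIF target. The chromosome 14q32 miRNA cluster from MIR379 to MIR656 is imprinted: it is transcribed from the maternal chromosome with the long noncoding RNAs MEG3 and MEG8, is active in brain and placenta, and is often low in tumours, glioma among them.

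The guide RNAs are shown because they define the groups. Each was found in the GENCODE v29 transcripts of its gene on GRCh38, and the capitals mark the PAM read from the transcript. The HIF1A guide was used in both groups compared. It matched coding sequence in exon 2 of HIF1A, on the opposite strand, at chr14:61720482-61720501. The HIF2A guide was used only in the HIF1α/HIF2α-KO cells of these groups. It matched coding sequence in exon 3 of EPAS1 at chr2:46356215-46356234, on the transcript strand.
HIF1A guide: gaactcacattatgtggaagTGG
HIF2A guide: cttggagggtttcattgccgTGG

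The 8 miRNAs that passed the test, all lower in HIF1α/HIF2α-KO cells, are shown with the seed in capitals. All 8 were matched to a RefSeq mature sequence on GRCh38.p14, as were 513 of the 562 miRNAs tested.
miR-758-3p: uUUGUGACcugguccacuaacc
miR-654-3p: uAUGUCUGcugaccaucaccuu
miR-379-3p: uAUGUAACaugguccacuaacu
miR-411-3p: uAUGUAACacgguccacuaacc
miR-379-5p: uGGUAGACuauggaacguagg
miR-381-3p: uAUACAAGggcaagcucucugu
miR-323a-3p: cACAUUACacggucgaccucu
miR-3681-5p: uAGUGGAUgaugcacucugugc
These 8 held 7 different seeds. Only miR-379-3p and miR-411-3p shared one, and no other tested miRNA with a matched sequence carried a seed of any of the 8. Of these miRNAs, 7 come from the 14q32 cluster and therefore from a single stretch of chromosome 14, on the plus strand. The hairpins MIR379 (chr14:101022066-101022132), MIR411 (chr14:101023325-101023420), MIR323A (chr14:101025732-101025817) and MIR758 (chr14:101026020-101026107) lie in introns of the noncoding RNA gene MEG8. MIR654 (chr14:101040219-101040299) overlaps no other annotated gene, and MIR381 (chr14:101045920-101045994) lies in an intron of MIR381HG. The exception, MIR3681 (chr2:12199130-12199201), lies in an intron of the noncoding RNA gene MIR3681HG on chromosome 2.

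Before the comparison, the libraries were checked. Small RNA libraries hold no HIF1A or EPAS1 mRNA, and the loss of either gene was not checked here. In the 6 libraries, miR-21-5p, abundant in glioma, measured 193837 to 255236 CPM (counts scaled to the library total). Of the brain miRNAs, miR-9-5p reached 1964 to 6501 CPM and miR-128-3p 1633 to 2213 CPM, whereas the neuronal miR-124-3p had 0 to 6 counts and miR-137-3p 0 or 1 count per library. HIF1α-KO replicate 3 stood apart with the lowest miR-9-5p. Libraries also differed in the endothelial miRNAs miR-126-3p and miR-126-5p, which U87-MG cells are not known for: their sum was 3.97 to 35.9 CPM in HIF1α-KO and 6.95 to 17.0 CPM in HIF1α/HIF2α-KO libraries. The other marker groups overlapped between the groups compared: the summed normalised CPM of 9 blood miRNAs was 4.59 to 17.8 and 5.49 to 9.32, that of 10 epithelial miRNAs 43.2 to 86.1 and 37.9 to 59.85, that of 6 muscle miRNAs 9.98 to 45.7 and 20.8 to 46.4, and that of 9 vascular and stromal miRNAs 230 to 554 and 226 to 351, in HIF1α-KO and HIF1α/HIF2α-KO libraries. HIF1α-KO replicate 3 gave the upper end of the HIF1α-KO range for miR-126 and for the blood, epithelial and vascular and stromal miRNAs. It gave the lower end for the muscle miRNAs. The part of these marker miRNAs in the results was not tested, except that the split by miR-126 was used as a covariate.

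Loss of HIF2α on top of HIF1α was accompanied by lower levels of a small set of miRNAs, most of them from 14q32. Of 562 miRNAs tested, 8 (1.42%) had an adjusted p under 0.05 in edgeR's quasi-likelihood test, all 8 lower and 0 higher after the second knockout. Values with an unadjusted p under 0.05 were found for 84 miRNAs (14.9%), of which 49 (8.72%) were lower and 35 (6.23%) higher, and 38 of the 84 (6.76% of all tested) also differed by at least 2-fold. The median log2 fold change of all miRNAs tested was 0.02. The calls depended on single libraries: 0 miRNAs passed without HIF1α-KO replicate 2 or without HIF1α/HIF2α-KO replicate 1 (61 and 59 at an unadjusted p under 0.05), 3 without HIF1α-KO replicate 1 or HIF1α/HIF2α-KO replicate 3, and 14 (8 higher, 6 lower) without HIF1α/HIF2α-KO replicate 2. Without HIF1α-KO replicate 3, 9 passed, among them all 8, whereas a fit of only the 6 libraries compared gave 0 (59 at an unadjusted p under 0.05) and DESeq2 on all libraries gave 25.

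**Figure D1:**
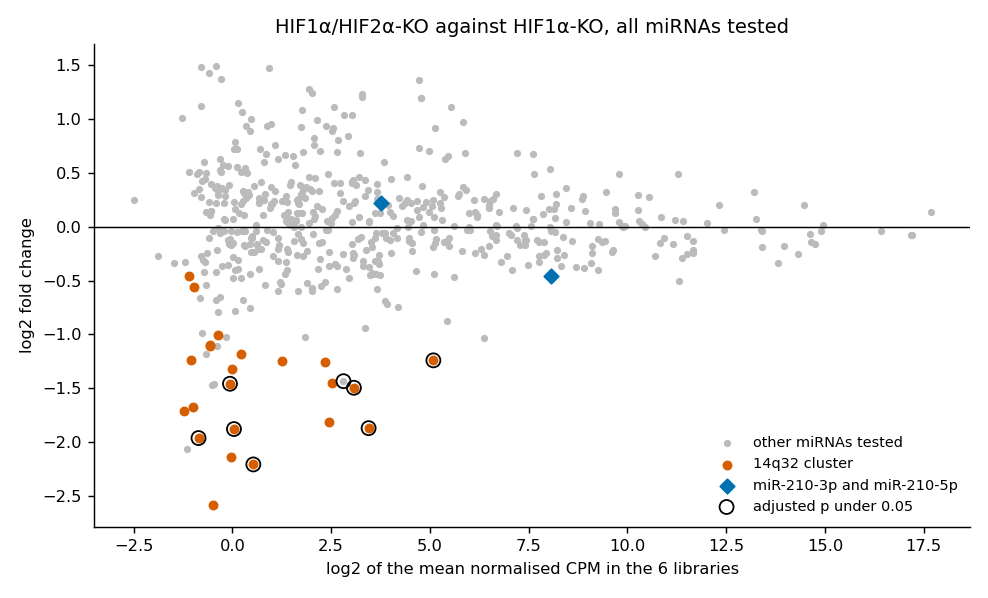
Log2 fold change (HIF1α/HIF2α-KO against HIF1α-KO, vertical axis) against the log2 of the mean normalised CPM of the 6 libraries (horizontal axis) for the 562 miRNAs tested, 1 point each. The 23 tested 14q32 cluster miRNAs all lie below 0, 7 of the 8 circled miRNAs with an adjusted p under 0.05 are among them, and miR-210-3p and miR-210-5p lie on either side of 0.

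The most abundant of the 8 was miR-381-3p. Its normalised CPM (counts scaled to the TMM-adjusted library size) was 44.4, 61.7 and 37.3 in the HIF1α-KO libraries and 19.1, 19.9 and 21.6 in the HIF1α/HIF2α-KO libraries. The groups did not overlap, and the means were 47.8 ± 12.5 and 20.2 ± 1.30 (SD, n = 3). The log2 fold change was -1.24 (SE 0.26, edgeR adjusted p = 0.0324). In HIF2α-KO cells, which kept HIF1α, the miRNA measured 25.4, 21.03 and 26.97 normalised CPM, also below the 45.9, 67.9 and 40.9 of the hypoxic control libraries.

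miR-654-3p had 165, 439 and 184 counts in HIF1α-KO and 48, 80 and 61 counts in HIF1α/HIF2α-KO libraries, or 17.1 ± 4.04 and 4.69 ± 1.54 normalised CPM (SD, n = 3). It had a log2 fold change of -1.87 (SE 0.34, edgeR adjusted p = 0.0232), with no overlap between the groups. miR-379-5p, the 5p arm of the first hairpin of the cluster, measured 9.94, 17.1 and 10.2 against 3.97, 3.41 and 5.90 normalised CPM. Its log2 fold change was -1.50 (SE 0.30, edgeR adjusted p = 0.0266), and its highest HIF1α/HIF2α-KO library was below every HIF1α-KO library. The 3p arm of the same hairpin, miR-379-3p, had 12, 16 and 10 counts in HIF1α-KO and 3, 4 and 2 counts in HIF1α/HIF2α-KO libraries. This arm was sparse in the double knockout, where 2 of 3 libraries were at or under the 3 counts taken as detectable, and its log2 fold change of -1.96 (SE 0.37, edgeR adjusted p = 0.0232) rests on these counts.

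miR-758-3p had the smallest p-value of all miRNAs tested. Its normalised CPM was 2.61, 2.30 and 2.25 in HIF1α-KO and 0.567, 0.379 and 0.574 in HIF1α/HIF2α-KO libraries, that is 25 to 47 against 5 to 9 reads counted. Its difference on the log2 scale was -2.21 (SE 0.36, edgeR adjusted p = 0.0157). It differed from the 6 other called cluster miRNAs in the controls: its level was higher in HIF1α-KO libraries than in all 3 hypoxic control libraries, which measured 1.11, 1.17 and 1.82 normalised CPM. miR-323a-3p and miR-411-3p were lower as well, from 1.79, 1.81 and 1.26 to 0.315, 0.833 and 0.164 normalised CPM (log2 fold change -1.88, SE 0.42, edgeR adjusted p = 0.0447) and from 1.63, 1.51 and 1.08 to 0.441, 0.682 and 0.410 normalised CPM (-1.46, SE 0.33, edgeR adjusted p = 0.0478). Both had few counts in HIF1α/HIF2α-KO libraries, with 2 to 11 for miR-323a-3p and 5 to 9 for miR-411-3p. The call of miR-411-3p held in only 2 of 9 other settings of the analysis and in 2 of 6 fits without a replicate.

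miR-3681-5p, the miRNA outside 14q32, measured 9.04, 11.3 and 10.4 normalised CPM in HIF1α-KO and 3.15, 3.41 and 4.84 in HIF1α/HIF2α-KO libraries. All 3 double-knockout libraries were lower, with a log2 fold change of -1.44 (SE 0.30, edgeR adjusted p = 0.0324). In HIF2α-KO libraries it measured 3.76, 10.1 and 5.03 normalised CPM, a range that contained all 3 hypoxic control libraries at 6.91, 6.22 and 8.01. For each of the 8 miRNAs the exact permutation p was 0.1, which is the lowest value possible with 3 libraries in each group. Non-overlap by itself was common, since 10.9% of all miRNAs tested were lower and 10.5% higher in every HIF1α/HIF2α-KO library than in every HIF1α-KO library.

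**Figure D2:**
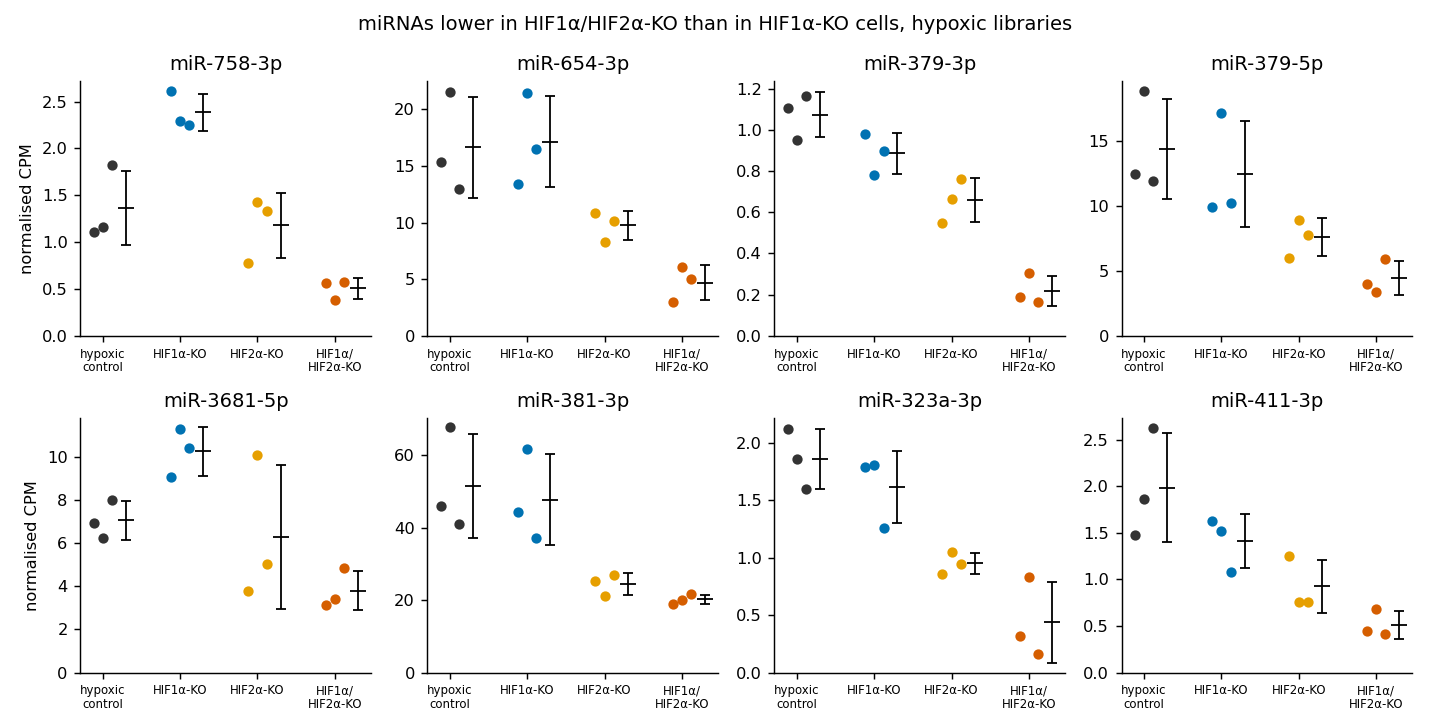
Normalised CPM (vertical axes, from 0) of the 8 miRNAs with an adjusted p under 0.05, in the 12 hypoxic libraries by group. Points are libraries and the bars beside them the mean ± SD (n = 3); in each panel all 3 HIF1α/HIF2α-KO libraries lie below all 3 HIF1α-KO libraries.

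The files listed 62 mature miRNAs of the MIR379-MIR656 cluster, all matched to chromosome 14 hairpins. The filter kept 23 of them, from 20 hairpins over 43.5 kb, and 39 were too sparse to be tested. All 23 had a log2 fold change below 0, against 48.0% of all miRNAs tested, and 20 had an unadjusted p under 0.05, all lower, against 8.72%. In 19 of the 23 the groups did not overlap, against 10.9%. The log2 fold changes ranged from -2.59 to -0.45, with a median of -1.45. Since a miRNA can pass the filter through the group in which it is high, the untested members were also summed: the 39 together gave 66, 113 and 58 counts (5.38, 5.52 and 5.21 normalised CPM) in HIF1α-KO and 36, 27 and 21 counts (2.27, 2.05 and 1.72 normalised CPM) in HIF1α/HIF2α-KO libraries. Their sum was thus lower in each double-knockout library than in each HIF1α-KO library. In a fit with no filter, 26 of these 39 had a log2 fold change below 0, against 40.5% of all 1707 miRNAs, and 7 had 0 counts in all 6 libraries.

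Among the cluster members that did not pass the adjusted test, 5 others belong to the 24 miRNAs with the smallest p-values. miR-411-5p, the other arm of the MIR411 hairpin, measured 8.07, 9.72 and 7.55 normalised CPM in HIF1α-KO and 2.14, 2.65 and 4.51 in HIF1α/HIF2α-KO libraries. Its log2 fold change was -1.45 (SE 0.37, edgeR adjusted p = 0.0703). The values of miR-409-3p (-1.81 ± 0.48), miR-543 (-2.14 ± 0.55), miR-494-3p (-1.26 ± 0.35) and miR-134-5p (-1.25 ± 0.35), log2 fold changes ± SE, had edgeR adjusted p-values of 0.0703, 0.0703, 0.0830 and 0.0830. In all 5 the groups did not overlap. Both arms could be tested for MIR379, MIR411, MIR654, MIR382 and MIR409. The arms of each lay on the same side of 0, which was given once all tested cluster members lay below 0. miR-1185-1-3p and miR-1185-2-3p are nearly the same sequence and could share reads, and miR-329-3p and miR-376a-3p each come from a pair of hairpins, so these are uncertain as separate measurements.

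**Figure D3:**
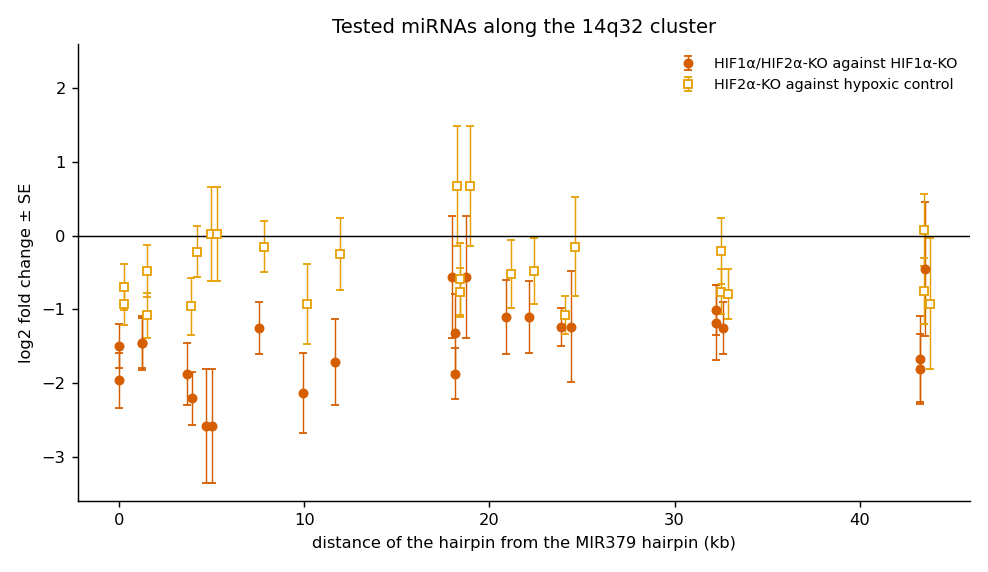
Log2 fold change ± SE (vertical axis) of the 23 tested cluster miRNAs against the distance of their hairpin from the MIR379 hairpin in kb (horizontal axis); a miRNA with a pair of hairpins is drawn at both. Filled circles compare HIF1α/HIF2α-KO with HIF1α-KO and all lie below 0 over the 43.5 kb, whereas the open squares, HIF2α-KO against hypoxic control, have a median of -0.59, with 20 of 23 miRNAs below 0 and miR-329-3p, miR-376a-3p and miR-409-5p above it.

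Summed over all 62 listed members, the cluster measured 117, 159 and 110 normalised CPM in HIF1α-KO libraries and 39.5, 50.7 and 53.1 in HIF1α/HIF2α-KO libraries. The highest double-knockout library was thus below the lowest HIF1α-KO library, and the ratio of the means (128 ± 26.5 and 47.8 ± 7.23, SD, n = 3) was 2.69. miR-381-3p alone gave 37.2% of the sum in HIF1α-KO cells, and without it the ratio was 2.92. The sums in the other groups were 126, 173 and 107 normalised CPM in hypoxic control libraries, 75.6, 73.0 and 87.1 in HIF2α-KO libraries and 69.7, 129 and 116 in normoxic control libraries. HIF1α-KO and hypoxic control libraries overlapped, HIF2α-KO libraries lay below both, and HIF1α/HIF2α-KO libraries were the lowest of the 5 groups. The cluster was a small part of all counts in every group, and in libraries of whole cultures fewer cells that express it and less RNA per cell cannot be told apart.

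The level of the cluster was also compared among libraries alike in miR-126. Among libraries with less miR-126, it was 117 and 159 normalised CPM in HIF1α-KO and 53.1 in HIF1α/HIF2α-KO cells. Among those with more, it was 110 normalised CPM in HIF1α-KO and 39.5 and 50.7 in HIF1α/HIF2α-KO cells. The order of the groups was the same in both sets. Any split would give this order, because every HIF1α/HIF2α-KO library lay below every HIF1α-KO library, so it tests nothing about miR-126. With the set as a covariate, 5 miRNAs passed the adjusted test, 4 of them from the cluster, and the median log2 fold change of the cluster was -1.38. Among the settings, only limma on quantile-normalized log2(CPM + 1), after the normalization named in the study's methods, moved this median by over 1.5 times, to -0.66.

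**Figure D4:**
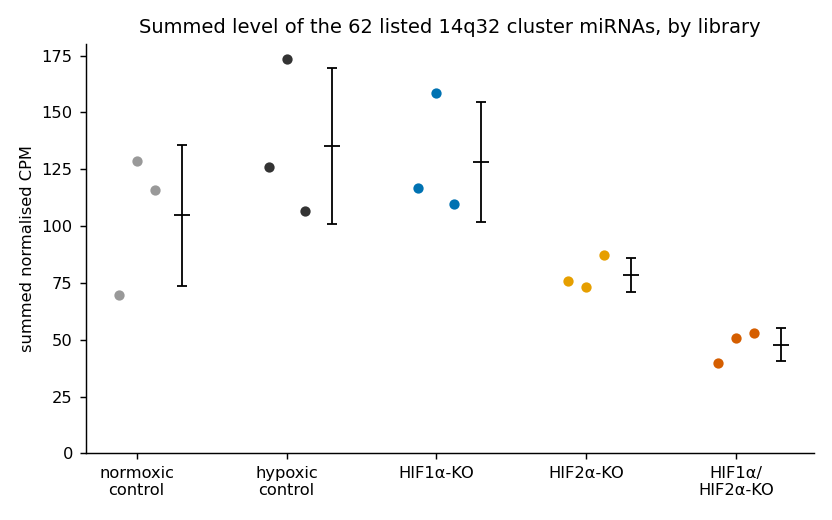
Summed normalised CPM of the 62 listed cluster miRNAs (vertical axis, from 0) in each of the 15 libraries by group; points are libraries and the bars beside them the mean ± SD (n = 3). The HIF1α/HIF2α-KO libraries, at 39.5 to 53.1, lie below those of the 4 other groups.

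Of the miRNAs that lie upstream of MIR379 in the same imprinted region, the files listed 12 and only miR-127-3p could be tested. It measured 1.80 ± 0.90 normalised CPM in HIF1α-KO and 1.60 ± 0.54 in HIF1α/HIF2α-KO cells (SD, n = 3). Its log2 fold change of -0.12 (SE 0.67, edgeR adjusted p = 0.938) had too wide an error to tell it from that of the cluster or from 0.

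miR-210-3p, the miRNA on which the study centres, is a well-known HIF target from MIR210 on chromosome 11 (chr11:568089-568198, minus strand, in an intron of MIR210HG). It and its partner strand are shown with the seed in capitals.
miR-210-3p: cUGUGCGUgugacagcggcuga
miR-210-5p: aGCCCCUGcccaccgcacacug
miR-210-3p measured 250, 240 and 436 normalised CPM in HIF1α-KO libraries and 181, 146 and 348 in HIF1α/HIF2α-KO libraries. The groups overlapped, with 1 library of each clearly above the others of its group. The log2 fold change was -0.46 (2 SE to either side, -1.07 to 0.15, edgeR adjusted p = 0.546, exact permutation test p = 0.5). A difference beyond the spread between libraries was thus not detected, and this interval includes a lower level by up to 1.07 on the log2 scale. The value also depended on single libraries, with -0.93 without HIF1α/HIF2α-KO replicate 3, -0.20 without HIF1α/HIF2α-KO replicate 2 and -0.16 without HIF1α-KO replicate 3 (edgeR adjusted p = 0.151, 0.818 and 0.894). All 6 libraries lay below the hypoxic control libraries at 1152, 1039 and 935 normalised CPM and the HIF2α-KO libraries at 1443, 1996 and 1210.4. They also lay below the normoxic control libraries at 1018, 1308 and 1236. A rise of miR-210-3p in hypoxic over normoxic control cells was not measured (log2 fold change -0.19, SE 0.30, edgeR adjusted p = 0.841). For miR-210-5p this log2 fold change was 0.04 (SE 0.29). miR-210-5p ranged from 9.14 to 17.4 normalised CPM in HIF1α-KO and from 10.7 to 16.9 in HIF1α/HIF2α-KO libraries (12.5 ± 4.35 and 14.6 ± 3.39, SD, n = 3), again with overlap. Its log2 fold change was 0.22 (2 SE to either side, -0.36 to 0.80, edgeR adjusted p = 0.796).

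No miRNA passed the test in the higher direction, and the values of the 8 with positive log2 fold changes among the 24 smallest p-values are given as measured. miR-30c-2-3p, the lesser strand of its hairpin and a miRNA reported to bind the mRNA of HIF2α, came closest. It measured 36.7, 38.4 and 27.1 normalised CPM in HIF1α-KO and 50.6, 61.1 and 49.2 in HIF1α/HIF2α-KO libraries, without overlap, with a log2 fold change of 0.66 (SE 0.16, edgeR adjusted p = 0.0586). miR-18a-5p, of the oncogenic miR-17-92 cluster and reported to bind the mRNA of HIF1A, measured 4.16, 4.05 and 3.95 against 9.38, 4.77 and 8.85 normalised CPM. Its log2 fold change was 0.92 (SE 0.25, edgeR adjusted p = 0.0818), and HIF1α/HIF2α-KO replicate 2 was close to the HIF1α-KO libraries. miR-18b-5p (0.89, SE 0.25) from chromosome X has nearly the same sequence and the same seed as miR-18a-5p, so their reads may be shared.

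The same library was the lowest of its group for several others. miR-193b-3p measured 30.6, 24.2 and 33.3 normalised CPM in HIF1α-KO and 82.3, 35.1 and 72.8 in HIF1α/HIF2α-KO libraries (log2 fold change 1.11, SE 0.32, edgeR adjusted p = 0.0838). miR-130a-5p measured 3.83, 3.57 and 3.86 against 9.82, 5.91 and 8.52 (1.11, SE 0.29, edgeR adjusted p = 0.0712). For miR-877-5p the values were 3.42, 1.86 and 3.59 against 6.93, 4.55 and 5.98 (1.00, SE 0.28, edgeR adjusted p = 0.0818). miR-129-1-3p and miR-129-2-3p differ in few bases and had nearly equal counts, so they are a single measurement for this purpose: miR-129-2-3p measured 6.76, 6.45 and 4.49 against 18.8, 9.55 and 12.7 normalised CPM (1.21, SE 0.32, edgeR adjusted p = 0.0703). Without HIF1α/HIF2α-KO replicate 2, 8 of 581 miRNAs tested passed in the higher direction. These were not the same as the 8 described, since miR-30c-2-3p and miR-877-5p passed in no fit without a replicate.

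Outside 14q32, 3 further miRNAs of the 24 had negative log2 fold changes, and none passed the adjusted test. miR-3617-5p, from chromosome 20, measured 14.8, 15.3 and 10.3 normalised CPM in HIF1α-KO and 5.16, 8.79 and 7.21 in HIF1α/HIF2α-KO libraries (log2 fold change -0.94, SE 0.23, edgeR adjusted p = 0.0586). It did not overlap between these groups, and its HIF2α-KO libraries, at 7.75, 6.57 and 7.22 normalised CPM, also lay below the hypoxic control libraries at 10.4, 14.7 and 14.4. miR-193a-5p (18.9 ± 2.84 against 11.5 ± 1.83 normalised CPM, SD, n = 3) and miR-195-3p (17.8 ± 1.09 against 11.03 ± 0.41) had log2 fold changes of -0.72 and -0.69 with edgeR adjusted p-values of 0.0703 and 0.0771.

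In the other groups of related miRNAs the median log2 fold changes lay between -0.24 and 0.43, against 0.02 for all miRNAs tested, and none of their members passed the adjusted test. Of 12 listed hypoxia-linked miRNAs other than miR-210, 11 were tested, with a median log2 fold change of 0.05. miR-21-5p measured 198966 ± 11692 and 218500 ± 24687 normalised CPM (SD, n = 3), and miR-107 1392 ± 257 and 1390 ± 40.4, in HIF1α-KO and HIF1α/HIF2α-KO cells. The 10 miRNAs of the miR-23/miR-27/miR-24 clusters had a median of -0.03, 8 tested of the X-linked miR-424/miR-503 cluster 0.34, and 9 reported to bind the mRNA of HIF1A or EPAS1 0.08. Of the latter, miR-155-5p, an inflammation-linked miRNA that targets HIF1A, measured 580 ± 236 and 513 ± 79.0 normalised CPM, a difference within the spread.

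Growth-linked groups were described in the same way. The 9 tested miRNAs of the miR-17-92 cluster had a median log2 fold change of -0.06, and its most abundant member, miR-92a-3p, measured 11463 ± 1418 and 10076 ± 515 normalised CPM (SD, n = 3). Their paralogs had a median of -0.13, the let-7 guide strands -0.04, the cell-cycle repressors of the miR-15/miR-16 family 0.13, the miR-99/miR-100 and miR-125 group -0.13 and the p53-linked miRNAs -0.01. In the miR-221/miR-222 cluster, known for repression of the cell-cycle inhibitor CDKN1B, miR-221-3p measured 22332 ± 587 and 18752 ± 3478 and miR-222-3p 16101 ± 521 and 12774 ± 1714 normalised CPM. miR-222-3p did not overlap between the groups, but its log2 fold change of -0.33 (SE 0.14) had an edgeR adjusted p of 0.285.

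Medians of the remaining groups were 0.10 in the X-linked miR-532/miR-502 cluster (14 tested), 0.17 in the miR-29 family (7 tested), 0.13 in the miR-30 family (11 tested), -0.12 in the miR-378 family (9 tested), 0.12 in the miR-183/miR-96/miR-182 cluster (3 tested), 0.43 in the cancer-germline miR-105/miR-767 group (4 tested) and -0.24 in the miRNAs of the HOX clusters (7 tested). The summed level of the miR-105/miR-767 group overlapped between HIF1α-KO and HIF1α/HIF2α-KO libraries, at 74.4 ± 4.52 and 77.9 ± 8.63 normalised CPM (SD, n = 3). At an unadjusted p under 0.05, 3 of 11 tested miR-30 miRNAs, 2 of 4 of the miR-105/miR-767 group and 2 of 8 of the miR-424/miR-503 cluster had positive values (6.23% of all miRNAs tested), and 2 of 7 HOX miRNAs and 2 of 4 of the miR-221/miR-222 cluster negative ones (8.72%). Those of the miR-30 family included miR-30a-5p at 2052 ± 167 and 2876 ± 341 normalised CPM (log2 fold change 0.49, SE 0.16, edgeR adjusted p = 0.152). Among the HOX miRNAs, miR-615-3p, from the HOXC cluster, measured 56.2 ± 5.88 and 30.6 ± 7.76 normalised CPM without overlap (log2 fold change -0.88, SE 0.26, edgeR adjusted p = 0.0946).

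**Figure D5:**
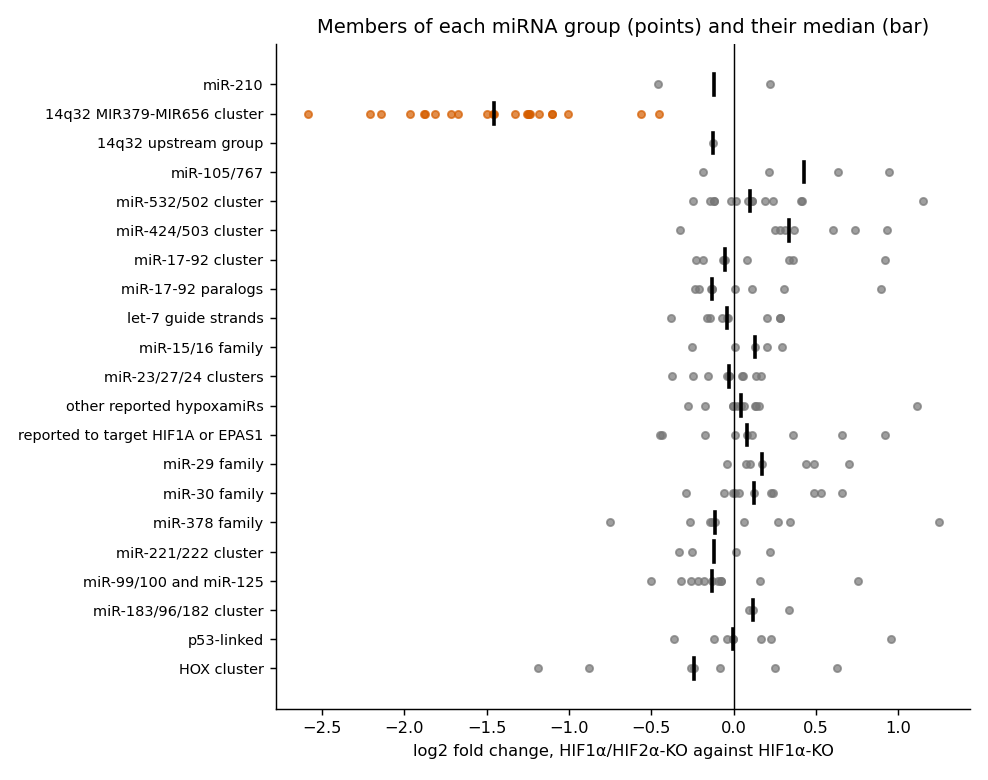
Log2 fold change (HIF1α/HIF2α-KO against HIF1α-KO, horizontal axis) of the tested members of each miRNA group (1 row per group, grey or orange points) and their median (black bar). The 14q32 cluster has its median at -1.45 and all points below 0, and the medians of the other groups lie between -0.24 and 0.43.

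Whether loss of HIF2α acted differently in cells with and without HIF1α was tested as an interaction, the HIF1α/HIF2α-KO against HIF1α-KO difference minus the HIF2α-KO against hypoxic control difference. No miRNA passed the adjusted test in edgeR, with 59 (10.5%) at an unadjusted p under 0.05, and 0 passed with DESeq2 or limma, whereas 5 of 1707 passed with no filter on low counts. Loss of HIF2α alone also gave 0 miRNAs at the adjusted edgeR threshold, and 86 (15.3%) had an unadjusted p under 0.05. The study's own list for HIF2α-KO cells, made by a criterion it does not state, differs from this. It gives the cluster members miR-379-5p, miR-381-3p, miR-411-3p, miR-654-3p, miR-299-5p and miR-485-5p as lower and no cluster member as higher. It also gives miR-3617-5p as lower and miR-210-3p as higher. In the edgeR fit, the 23 tested cluster miRNAs had a median log2 fold change of -0.59 after loss of HIF2α alone. Of these, 20 were below 0 (all miRNAs tested: 51.4%) and 7 were lower at an unadjusted p under 0.05 (6.76%). Their smallest adjusted p was 0.124. Their interaction values had a median of -0.97, with 22 of 23 below 0 (all miRNAs tested: 48.6%), 6 lower at an unadjusted p under 0.05 (6.76%) and a smallest adjusted p of 0.378. A larger difference in cells without HIF1α was therefore measured for most cluster members, but not established for any of them. The interaction contains the HIF1α/HIF2α-KO against HIF1α-KO difference, in which all 23 already lay below 0. Members of the same cluster are also not independent, so the count of 22 of 23 is not separate support.

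The smallest interaction p-value belonged to miR-758-3p, for which the interaction was -1.99 (SE 0.50, edgeR adjusted p = 0.378). Its HIF2α-KO libraries, at 0.783, 1.43 and 1.33 normalised CPM, overlapped the hypoxic control libraries. miR-605-5p followed: it measured 2.77, 3.08 and 3.24 normalised CPM in HIF1α-KO, 6.93, 3.79 and 5.41 in HIF1α/HIF2α-KO, 3.50, 2.81 and 2.77 in hypoxic control and 1.57, 2.66 and 2.28 in HIF2α-KO libraries. The double knockout was the highest and HIF2α-KO the lowest of these groups, and the interaction was 1.31 (SE 0.36, edgeR adjusted p = 0.378). miR-222-3p measured 14383, 13864 and 14061 normalised CPM in hypoxic control libraries, between the double knockout and HIF1α-KO means. In HIF2α-KO libraries it measured 22048, 18862 and 13970, the last within the range of the hypoxic control libraries. Its interaction was -0.71 (SE 0.20, edgeR adjusted p = 0.378). For miR-381-3p the log2 fold changes of HIF2α loss were -1.24 without and -1.08 with HIF1α, an interaction of -0.16. For miR-210-3p they were -0.46 without and 0.57 with HIF1α, and the interaction of -1.03 (SE 0.43) had an edgeR adjusted p of 0.439.

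The differences after HIF2α loss in cells with and without HIF1α come from groups that share no library, though 1 model fitted both. Over the 562 miRNAs their log2 fold changes had a Spearman correlation of 0.19 (Pearson 0.26), and over the 539 miRNAs outside the cluster of 0.13 (Pearson 0.18). These describe a weak relation across miRNAs, which are not independent replicates. In hypoxic against normoxic control cells, the cluster had a median log2 fold change of 0.50, with 20 of 23 above 0 (all miRNAs tested: 50.7%) and 5 higher at an unadjusted p under 0.05 (3.2%). No miRNA passed the adjusted edgeR test there, with 35 (6.23%) at an unadjusted p under 0.05. This comparison uses the same hypoxic control libraries as HIF2α-KO against hypoxic control. The cluster values of these comparisons, opposite in sign, are therefore not independent.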

How the data were processed

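Small RNA reads were counted per mature miRNA in 15 libraries of U87-MG cells. The authors deposited whole-number counts for 1707 mature miRNAs per library, without normalization. The submitters' processing notes name HISAT2, StringTie and DESeq2, limma's quantile normalization is described in the supplement but was not applied to these counts, and the genome build is not given in the sources used here. Labels gave each sample's genotype, oxygen level and replicate number.

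Counts were normalized with TMM factors (edgeR 4.0.16, R 4.3.3). The 562 miRNAs kept by filterByExpr, with at least 99.988% of every library's counts, were fitted in a single quasi-likelihood model of all 15 libraries, so that the groups shared one estimate of the spread. HIF1α/HIF2α-KO was compared with HIF1α-KO, HIF2α-KO with hypoxic control, hypoxic with normoxic control, and the first 2 differences with each other (interaction). Benjamini-Hochberg adjustment covered all 562 miRNAs, with a threshold of 0.05. Levels are given as CPM on TMM-scaled library sizes (normalised CPM). Single miRNAs were also compared with a two-sided exact permutation test, whose lowest possible p with 3 libraries per group is 0.1. The alternatives were other normalizations, filters and tests (DESeq2 1.42.0, limma 3.58.1), a replicate block, a covariate and leaving out each replicate.

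The text names both strands of miR-210, the 24 miRNAs with the smallest p-values, the 3 with the smallest interaction p-values and the most abundant members of each miRNA group. Any other miRNA was picked once its values had been seen. The comparison, the members and the miRNA groups were chosen with earlier results of these data known. Sequences and hairpin positions come from RefSeq on GRCh38.p14 and overlapping genes from GENCODE v29. Total counts of the 6 libraries compared were 10360337 to 20648259, and the detection floor of 3 counts was at most 0.290 CPM. It covers counting error only.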

Additional observations from a re-analysis of the deposited data

How the results depend on the processing

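The number of miRNAs that passed in HIF1α/HIF2α-KO against HIF1α-KO cells was 8. It was 25 with the Wald test of DESeq2 (8 higher, 17 lower), 16 with limma on quantile-normalized log2(CPM + 1) (3 higher, 13 lower) and 26 with no filter (12 higher, 14 lower). It was 4 with at least 10 counts in each of the 6 libraries, 5 with the miR-126 set as a covariate and 0 to 14 when a replicate was left out. With only the libraries compared it was 0 (59 at an unadjusted p under 0.05). There, fewer samples estimated the spread, and the filter kept 515 miRNAs, 14 of them from the cluster. The lower calls ranged from 0 to 9 and the higher from 0 to 8 without a replicate. The number at an unadjusted p under 0.05 and at least 2-fold, 38, became 12 with limma, 77 with no filter, 16 with at least 10 counts and 24 with only the libraries compared. The interaction gave 5 miRNAs (3 higher, 2 lower) with no filter. The cluster median was -0.66 with limma, a setting that changed the normalization, the pseudocount and the test together. It was -1.59 to -1.26 without a replicate, the latter without HIF1α/HIF2α-KO replicate 1. The miR-105/miR-767 median was 0.23 with limma. The miR-17-92 median was 0.13 with no filter and -0.062 to 0.16 without a replicate. The causes of these changes were not tested. Other normalizations gave 8 (size factors of DESeq2), 6 (library totals) and 8 (miR-21-5p left out).

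None of the results checked changed direction past a threshold. Of 75 values of the 8 called miRNAs under settings other than leaving out a replicate, 58 stayed past the threshold and 17 did not, and of 48 without a replicate 18 stayed and 30 did not. By miRNA, the former ranged from 2 of 9 for miR-411-3p to 9 of 10 for miR-654-3p, miR-379-5p and miR-3681-5p. The latter ranged from 1 of 6 for miR-381-3p and miR-3681-5p to 4 of 6 for miR-758-3p. Of the other named miRNAs, 34 of 179 values under other settings and 9 of 108 without a replicate passed. With the replicate number as a block, 9 miRNAs passed, of which 7 were among the 8, and 0 in the interaction. Deviations from the group means were correlated between HIF1α-KO and HIF1α/HIF2α-KO libraries. The values were -0.13, -0.17 and -0.29 for libraries with the same number and -0.24 to 0.34 for the other pairs. The numbers were therefore not taken to pair the samples.

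Depth limits the sparse cluster members: 9 of the 23 tested had a HIF1α/HIF2α-KO library at 3 counts or fewer.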
